A study of Mus musculus with 13 samples.

Results

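In the fetal liver single-cell library, 193 of 3093 cells held complement C1q RNA together with RNA of Tmcc2 or Xpo7, mostly of both, transcripts that are typical of late erythroid cells. These late-RNA C1q cells were chosen by 3 conditions on the counts of each cell. A cell had to show at least 200 detected genes, at least 10 counts of C1qa, C1qb and C1qc together per 10000 of its counts, and at least 4 counts of Tmcc2 and Xpo7 together per 10000. The measurements compared here are the other 1470 C1q cells, which lay below the Tmcc2 and Xpo7 limit, 88 late erythroid cells and 142 early erythroid cells. Both erythroid groups had C1q below 10 and a summed level of erythroid genes, Slc4a1, Alas2, Klf1 and Rhag among them, of 20 or more per 10000, and they were called late or early by the same limit on Tmcc2 and Xpo7. The remaining 1200 cells had C1q below 10 and that erythroid sum below 20, whatever their Tmcc2 and Xpo7.

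The study asked how EKLF (also called KLF1), an erythroid transcription factor, is used by macrophages of the erythroblastic islands of the fetal liver. Cells carrying F4/80, the macrophage surface protein encoded by Adgre1, were taken from mouse embryos at E13.5. The single-cell library came from wild type littermates that were pooled and enriched with magnetic beads while a peptide blocked Icam4 on erythroblasts from binding αv integrin on macrophages. In addition, 12 bulk libraries of sorted F4/80+ cells came in 4 groups of 3, namely EKLF+/+, EKLF-/- (null for EKLF), and the GFP+ and GFP- cells of otherwise wild type embryos with a GFP transgene driven by the EKLF promoter (EKLF/GFP+ and EKLF/GFP-). Every sample carries the strain label C57BL/6, although the methods place the EKLF-null line on another background. RNA of the EKLF/GFP+ cells was purified with a kit and that of the EKLF/GFP- cells with Trizol, so extraction and group cannot be told apart in that comparison. The methods report low cell numbers for EKLF/GFP+ and a lower RNA integrity than in the EKLF+/+ and EKLF-/- samples. They give no such value for EKLF/GFP- cells.

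Erythroblastic islands are clusters of maturing erythroblasts around a central macrophage. At the end of maturation the erythroblast expels its nucleus, which the macrophage engulfs and digests, while the reticulocyte keeps the globin RNA. C1q is a secreted complement protein made by many tissue macrophages. Xpo7 encodes a nuclear export receptor that is needed for the nuclear changes of late erythroblasts, and Tmcc2 encodes a membrane protein of the endoplasmic reticulum whose RNA is high in late erythroblasts.

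The library had 3096 barcodes, of which 3 had too few genes. It was the only single-cell library, so no barcode could be shared and there is no replicate: the cells are not independent replicates of a condition, no p-value is given for them, and the intervals cover counting error only. A doublet caller (Scrublet) called 0 of the 3093 cells. Its median score was 0.0468 in late-RNA C1q cells, 0.0337 in other C1q cells and 0.00598 in late erythroid cells, and the 95th percentile was higher in late-RNA C1q cells, at 0.192, than in the other groups, at 0.0965 and 0.0303. Xist was seen in 3 cells and Y-linked RNA in 2468, so the pooled embryos could not be told apart by sex and this check of mixed cells was not informative. Bulk libraries held about 10695500 to 15362200 counts on genes for EKLF+/+ and EKLF-/-, and 22747800 to 28767700 for the GFP groups.

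Late-RNA C1q cells made up 11.6% of all 1663 C1q cells (95% exact binomial interval 10.1 to 13.2%). The limits fell within a continuous range of values. The nearest cells inside the Tmcc2 and Xpo7 limit had 4.02, 4.11 and 4.16 per 10000, and those just outside had 3.95, 3.85 and 3.85. Across the C1q limit, the nearest cells past the Tmcc2 and Xpo7 limit had C1q at 10.3, 10.8 and 11.1 inside and 9.94, 9.38 and 8.33 outside. Only 3 of the 193 cells rested on fewer than 3 counts of Tmcc2 and Xpo7, and 184 held at least 1 count of each gene. Both counts chose the cells, so these values are a description.

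The late-RNA C1q cells carried the macrophage markers at close to the level of other C1q cells. Levels are given for each group as the summed counts of a gene per 10000 summed counts of all genes. Adgre1, which was not used by the rule, stood at 4.69 (95% Poisson interval 4.44 to 4.94), against 5.30 in other C1q cells and 0.21 in late erythroid cells. Vcam1, an adhesion molecule that binds erythroblasts, stood at 5.69 against 5.84 and 0.24. Spic, a transcription factor of iron-recycling macrophages, stood at 1.67 against 1.57 and 0.0678. Cd5l, a secreted macrophage protein, stood at 8.97 against 8.50 and 0.45, Marco, a scavenger receptor, at 6.63 against 7.87, Csf1r, the receptor for macrophage growth factor, at 5.77 against 7.37, and the lysozyme gene Lyz2 at 9.54 against 11.7. Of the 20 macrophage genes on the list that were measured at 0.2 per 10000 or more, 1 lay below 1/1.5 times its level in other C1q cells and 0 above 1.5 times. That one was Cx3cr1, a chemokine receptor, at 1.45 against 2.77. The summed levels thus carry the markers, but not evenly over the cells. The median macrophage list level was 36.2 per 10000 in the 28 cells with the most Tmcc2 and Xpo7, against 78.3 in the C1q cells with the least. The median total count per cell was 10178 in late-RNA C1q cells, 14748.5 in other C1q cells and 17465 in late erythroid cells, and the median number of genes was 3064, 3936 and 1339. After thinning to 5000 counts per cell, which left out 11, 17 and 3 cells, the median number of genes was 1963.5, 1990 and 576.

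Tmcc2 reached 15.96 per 10000 in late-RNA C1q cells, against 0.22 in other C1q cells and 13.6 in late erythroid cells. Xpo7 reached 7.59, 0.45 and 7.63. Per cell, the median count of both genes together was 32 in late-RNA C1q cells, with a 5th to 95th percentile range of 4 to 88.4, and 34 in late erythroid cells. Other C1q cells had a median of 1 count. The same limit on these genes chose all of these groups, so these values are a description. The ratio of Tmcc2 to Xpo7 level was 2.10 in late-RNA C1q cells, 1.79 in late erythroid cells and 0.498 in other C1q cells. Counts here are estimates of molecules from their molecular identifiers.

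Globin RNA did not accompany Tmcc2 and Xpo7 in the amount seen in late erythroid cells. Adult globins here are Hba-a1, Hba-a2, Hbb-bs and Hbb-bt, which encode the chains of adult haemoglobin and share near-identical copies, so that they are best read as a sum. The median cell held 201 adult globin counts among late-RNA C1q cells, 67 among other C1q cells and 13437.5 among late erythroid cells. For each count of Tmcc2 and Xpo7, the median late-RNA C1q cell held 6.15 adult globin counts and the median late erythroid cell 365. In the plot of globin against Tmcc2 and Xpo7, 181 of the late-RNA C1q cells lay below 1000 adult globin counts per 10000 and 12 above. That limit was drawn after the values were seen. The 12 globin-rich cells held a median of 358 globin counts for each count of Tmcc2 and Xpo7, close to the late erythroid value, and the other 181 held 5.82, with a 5th to 95th percentile range of 2.75 to 27. The 12 cells had a median of 23755 total counts and a median C1q level of 25.3 per 10000.

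**Figure D1:**
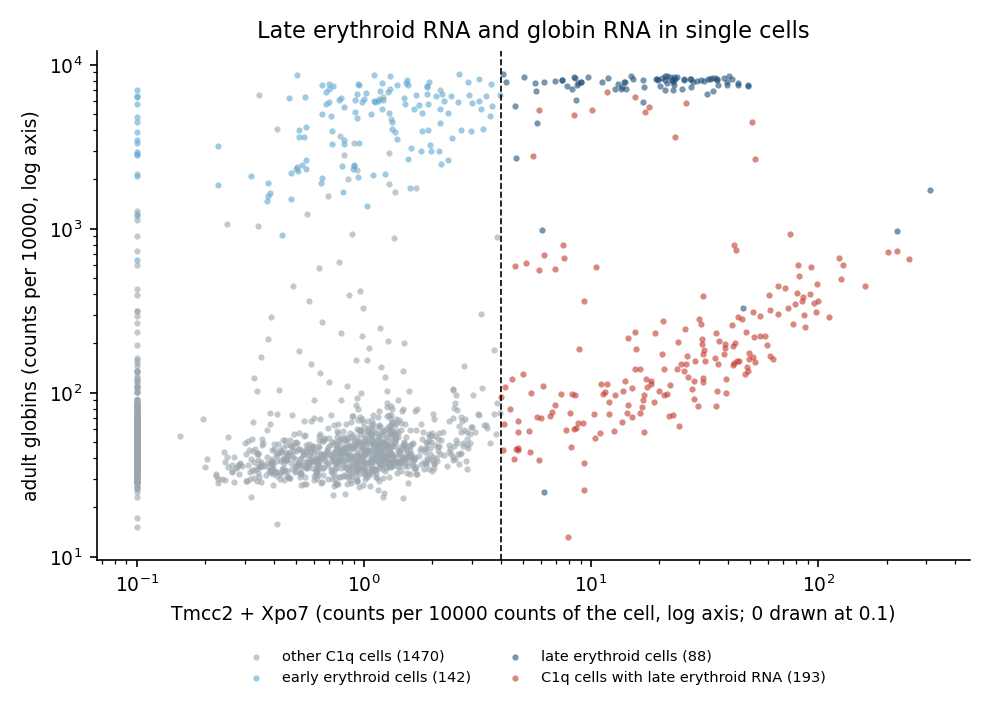
Each point is 1 cell, with Tmcc2 plus Xpo7 on the x axis and adult globins on the y axis, both as counts per 10000 counts of the cell on log axes; the dashed line is the limit of 4. Most of the 193 late-RNA C1q cells (red) rise from the band of other C1q cells (grey) to below 1000, while late erythroid cells (dark blue) cluster at a median of 7890.

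Cells with Tmcc2 and Xpo7 but little globin were mostly C1q cells. Among the 139 cells past the Tmcc2 and Xpo7 limit with C1q below its limit, whatever their erythroid genes, 117 (84.2%, interval 77.0 to 89.8%) held adult globins at 1000 or more per 10000. The other 22 (15.8%, interval 10.2 to 23.0%) lay below. These 22 cells held the macrophage list at a median of 24.1 per 10000, with a 5th to 95th percentile range of 2.21 to 138, whereas the 117 globin-rich cells held it at 3.64. The C1q limit thus divided cells of continuous C1q level, as the values at its edge show.

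The share of an erythroid transcript that late-RNA C1q cells carried was then set out gene by gene. The excess of a gene is its level in late-RNA C1q cells minus that in other C1q cells, given as a percent of the same difference for late erythroid cells. Adult globins stood at 7.61% (counting interval 7.57 to 7.65%). Alas2, the first enzyme of erythroid heme synthesis, stood at 9.20% (7.86 to 10.5%), and Slc25a37, the mitochondrial iron importer, at 14.7% (13.3 to 16.01%). Slc4a1, the anion exchanger band 3, stood at 35.3%, with 3.62 per 10000 in late-RNA C1q cells, 0.25 in other C1q cells and 9.78 in late erythroid cells. Slc2a1, a glucose transporter, reached 91.0% (82.3 to 99.6%). The rule genes Xpo7 and Tmcc2 stood at 99.3% and 117%, and outside the globins at 27.1% and 32.9%.

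The percents depend on the total, since globins were 6.75% of all counts in late-RNA C1q cells, 1.37% in other C1q cells and 73.5% in late erythroid cells. On the total with globins, several late erythroid genes exceeded their level in late erythroid cells. Pim1, a serine/threonine kinase, stood at 119% (107 to 131%), with levels of 4.88, 0.46 and 4.18 in late-RNA C1q, other C1q and late erythroid cells. Dennd4a, a regulator of Rab GTPases, stood at 206% (179 to 233%), Tmem131l at 219% (182 to 257%), Lpin2, a phosphatidate phosphatase, at 235% (199 to 270%) and Ypel4 at 278%. Ypel4 was at 2.57, 0.04 and 0.95 per 10000. Per 10000 counts outside the globins, an alternative added after these values were seen, the direction turned: Ypel4 stood at 2.75 in late-RNA C1q cells and 3.58 in late erythroid cells, Pim1 at 5.24 and 15.8, and Tmcc2 at 17.1 and 51.5. On that total the excess was 76.6% for Ypel4, 55.8% for Tmem131l, 54.3% for Lpin2 and for Dennd4a, 31.1% for Pim1, 9.87% for Slc4a1, 2.61% for Alas2 and 2.16% for adult globins. With the 12 globin-rich cells and the 23 other C1q cells above the same globin limit left out, adult globins stood at 1.62% (1.603 to 1.65%) on the total with globins, a fall that leaving out cells by their globin level fixes, and the late maturation genes at 44.0%. With all cells and outside the globins, the late maturation list stood at 12.3% (11.87 to 12.7%).

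**Figure D2:**
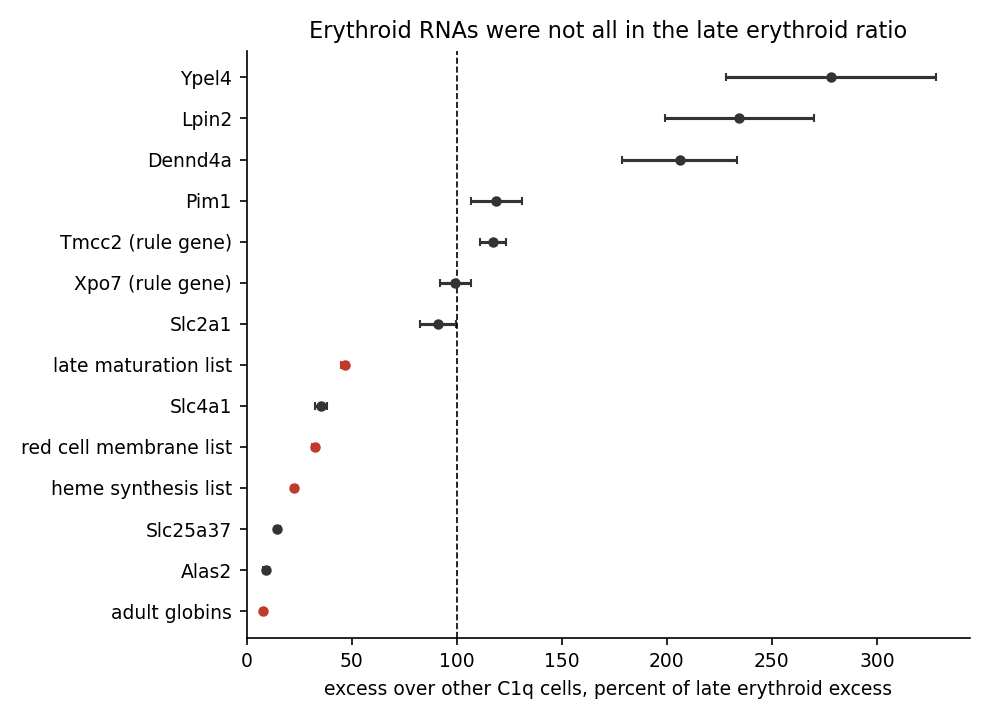
Points give the excess over other C1q cells in late-RNA C1q cells as a percent of the excess in late erythroid cells, for gene lists (red) and single genes (black), and bars are 95% counting intervals; the dashed line is 100%, on the total with globins. Adult globins, Alas2 and Slc25a37 lie below 15%, and Dennd4a, Lpin2 and Ypel4 above 200%.

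Over the 104 genes that were at least 3 times higher in late erythroid than in other C1q cells and reached 1 per 10000 there, the rule genes left out, the median excess was 35.8%, the middle 50% of genes lay between 16.3 and 66.7%, and 13 genes reached 100%. Outside the globins, over the 99 of these genes that are no globin, the median was 10.0% and 0 reached 100%. On the total with globins, the excess was higher for genes with long transcripts and for genes with a higher ratio of late to early erythroid level. Across these 104 genes, which are not independent replicates, Spearman's rho of the excess was 0.47 with the length of the longest annotated transcript. The 13 genes at 100% or more had a median transcript length of 5555 bases, and the 32 genes below 20% had 1802 bases. With the ratio of late to early erythroid level, rho was 0.50, and the medians of that ratio were 2.84 and 0.734 in the same sets of genes. The parts of length and of this ratio were not told apart by a test.

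By gene list, the late-RNA C1q cells stood above other C1q cells for every erythroid list. Over all 6150 genes at 0.2 per 10000 or more in either group, 5.30% were above 1.5 times the level in other C1q cells and 2.55% below 1/1.5 times. The choice of cells used this contrast, so nothing is read from these shares. Among the 22 measured genes of late erythroid maturation, such as the ubiquitin ligase Trim10, the kinase Pim1 and the mitophagy receptor Bnip3l, 19 were above and 0 below, and the summed level was 4.45 times that of other C1q cells (interval 4.34 to 4.56). All 15 measured red cell membrane genes were above, at 8.52 times in sum, and 8 of 10 measured heme synthesis genes, at 2.34 times. Within the heme list, Slc25a37 and Fech, which inserts iron into heme, stood at 2.58 and 1.49 per 10000 against 0.36 and 0.33. Tmem14c, which carries a heme precursor into mitochondria, was at 3.24 against 3.93 and so did not follow them. Adult globins were at 666 against 116 per 10000, and at 172 against 53.9 without the globin-rich cells.

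The 5 measured genes of the early erythroid list, Tfrc and Car2 among them, were all above 1.5 times their level in other C1q cells, at 2.33 times in sum, but the list's excess was only 18.8%. Among them, the erythroid transcription factors Tal1 and Nfe2 stood at 0.70 and 0.55 per 10000, against 0.14 and 0.0515 in other C1q cells and 1.58 and 1.39 in late erythroid cells. Klf1 and Gata1 were below 0.2 per 10000 in both C1q groups. Klf1, which encodes EKLF, was at 0.12 per 10000 in late-RNA C1q cells (37 counts over 193 cells), 0.0530 in other C1q cells, 0.86 in late erythroid and 1.66 in early erythroid cells. After thinning to 5000 counts, a count of Klf1 was seen in 6.59% of late-RNA C1q cells and 1.31% of other C1q cells, and without thinning in 14.5% and 4.69%. Gata1, the erythroid GATA factor, was at 0.11, 0.0504 and 0.33 per 10000 in late-RNA C1q, other C1q and late erythroid cells. Epor, the erythropoietin receptor, was at 0.35 (0.28 to 0.42), 0.11 and 0.30. Tfrc, the transferrin receptor, was at 3.19, 1.93 and 2.61, and Car2, carbonic anhydrase II, at 2.26, 0.58 and 16.1. Outside the globins, Epor and Tfrc were below late erythroid cells, at 0.37 against 1.12 and at 3.42 against 9.87 per 10000. Icam4, an erythroblast adhesion protein, was at 0.10, 0.0733 and 0.87.

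Genes for taking up and digesting cells were near the level of other C1q cells. The efferocytosis list, which holds the receptors and cytoskeletal regulators of dead cell uptake, stood at 0.87 times (0.85 to 0.89), with 0 of 17 measured genes above 1.5 times and 1 below 1/1.5 times. That one was Gas6, a bridging ligand named after its value was seen, at 0.29 against 0.45 per 10000. Axl, one of its receptors, was at 2.68 against 3.05, Mertk, another, at 1.20 against 1.49, and Timd4, a phosphatidylserine receptor, at 2.20 against 2.38. The lysosome and nuclease list stood at 0.89 times, with all 20 genes between the limits, and Dnase2a, the lysosomal nuclease that digests engulfed nuclei, was at 0.97 (0.87 to 1.09) against 1.05. The list of heme and iron recycling stood at 0.98 times, and at 1.03 without the globin-rich cells, with Hmox1, heme oxygenase, at 24.5 against 22.7 and Slc40a1, the iron exporter ferroportin, at 13.1 against 13.4.

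**Figure D3:**
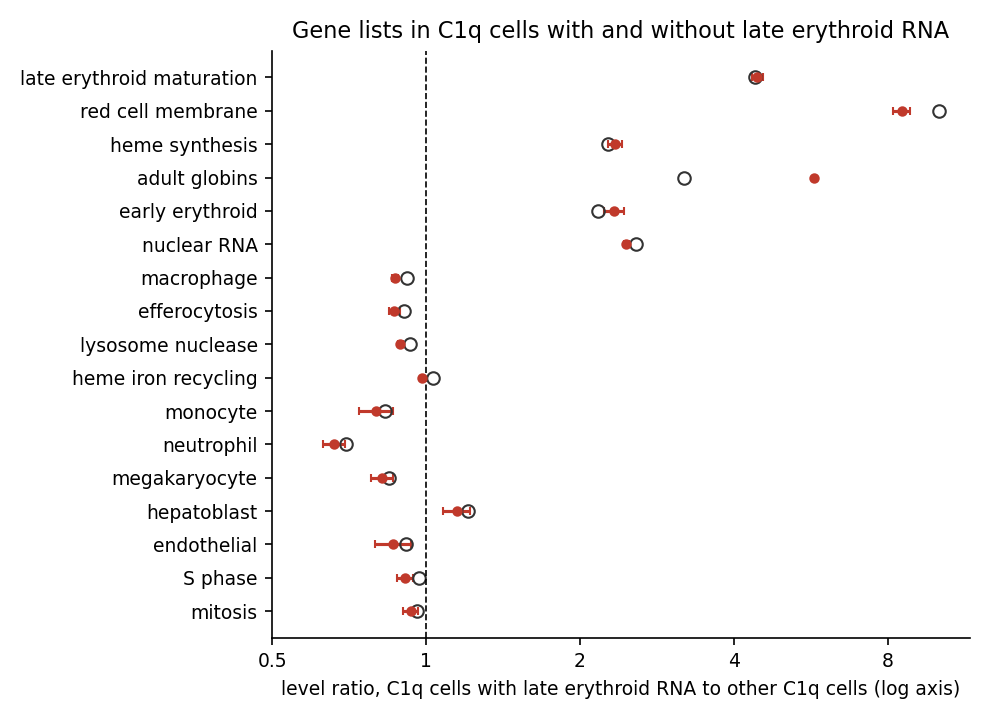
Filled points give the level ratio of late-RNA C1q cells to other C1q cells for each gene list on a log axis, with 95% counting intervals, and open circles the same without cells at 1000 or more adult globin counts per 10000. Erythroid and nuclear RNA lists lie above 1 and the filled points of the macrophage, efferocytosis, lysosome and iron recycling lists between 0.87 and 0.98; the open circle of iron recycling is at 1.03.

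Of 3 measured RNAs that stay in the nucleus, 2 were above 1.5 times their level in other C1q cells and 1, Kcnq1ot1, an imprinted non-coding RNA, was below 1/1.5 times, at 1.63 against 2.504 per 10000. Malat1, a nuclear long non-coding RNA, was at 128 per 10000 in late-RNA C1q cells, 49.9 in other C1q cells and 69.6 in late erythroid cells, and Neat1, the RNA of nuclear paraspeckles, at 2.39, 1.09 and 0.92. On this total Malat1 and Neat1 were above both reference groups. Outside the globins they were not, with Malat1 at 137 in late-RNA C1q and 263 in late erythroid cells, and Neat1 at 2.56 and 3.47. Of the 1439 genes at 1 or more per 10000 and at least 30 counts in late-RNA C1q cells, 30 were more than 1.5 times the higher of the other C1q and late erythroid levels on the total with globins. Outside the globins this held for 0 of 1433 genes, and only 1 of the 30 was above both at all. These genes passed the filter through the late-RNA C1q cells, so the counts are a description. Among those furthest above were Ypel4, Cdk12, Neat1, Fcho2, Tut7, Clk1 and Rsrp1, at 2.71, 2.58, 2.19, 2.15, 2.12, 2.07 and 2.05 times on the total with globins. Cdk12 is a kinase of transcribing RNA polymerase, Clk1 a kinase of splicing factors, and Tut7 adds uridines to RNA in the cytoplasm. The genes with the largest ratio to other C1q cells, apart from Tmcc2 and Xpo7, were Slfn14, Ypel4, Gm37527, Gadd45a, Trim10, Tent5c, Dennd4a, Slc2a1, Ermap, Slc4a1, Tmem131l and Tbcel, from 70.5 times for Slfn14 to 12.3 times for Tbcel. The lowest ratios were for Hbb-y, an embryonic globin, at 5.75 against 19.0 per 10000, the heat shock genes Hspa1a and Hspa1b, the immediate early genes Fos and Jun, and Cx3cr1. In the clustering below, a cluster of 47 cells led by Hbb-y held 11 other C1q cells and 0 late-RNA C1q cells. Without the globin-rich cells, all listed globins stood at 181 against 58.5 per 10000, and the adult ones among them at 172 against 53.9. The part that is not adult globin was then higher in late-RNA C1q cells. Hbb-y alone is not given without the globin-rich cells.

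Within C1q cells past the limit, the medians of globin and Malat1 were higher at higher Tmcc2 and Xpo7. Below the limit the median of Malat1 was at 30.04, 26.6 and 33.4 per 10000 in 3 steps, and in the first step past it at 31.6, so that it was higher only from 8 per 10000 up. From the 35 cells at 4 to 8 per 10000 to the 28 cells at 64 or more, the median of adult globins went from 79.9 to 421 per 10000 and that of Malat1 from 31.6 to 351. The median macrophage list level over the same steps was 56.1, 77.5, 68.9, 56.5 and 36.2, and the median total count was 12844, 19272, 13623, 7764 and 6462. Across the 193 cells, Spearman's rho with Tmcc2 and Xpo7 was 0.76 for Malat1, 0.55 for adult globins, -0.22 for C1q and -0.52 for the total count. The total is the divisor of the levels, so these values share it. In the 182 cells thinned to 5000 counts each, rho was 0.77 for Malat1, 0.49 for adult globins and -0.20 for C1q. The part of depth in these relations was otherwise not tested.

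**Figure D4:**
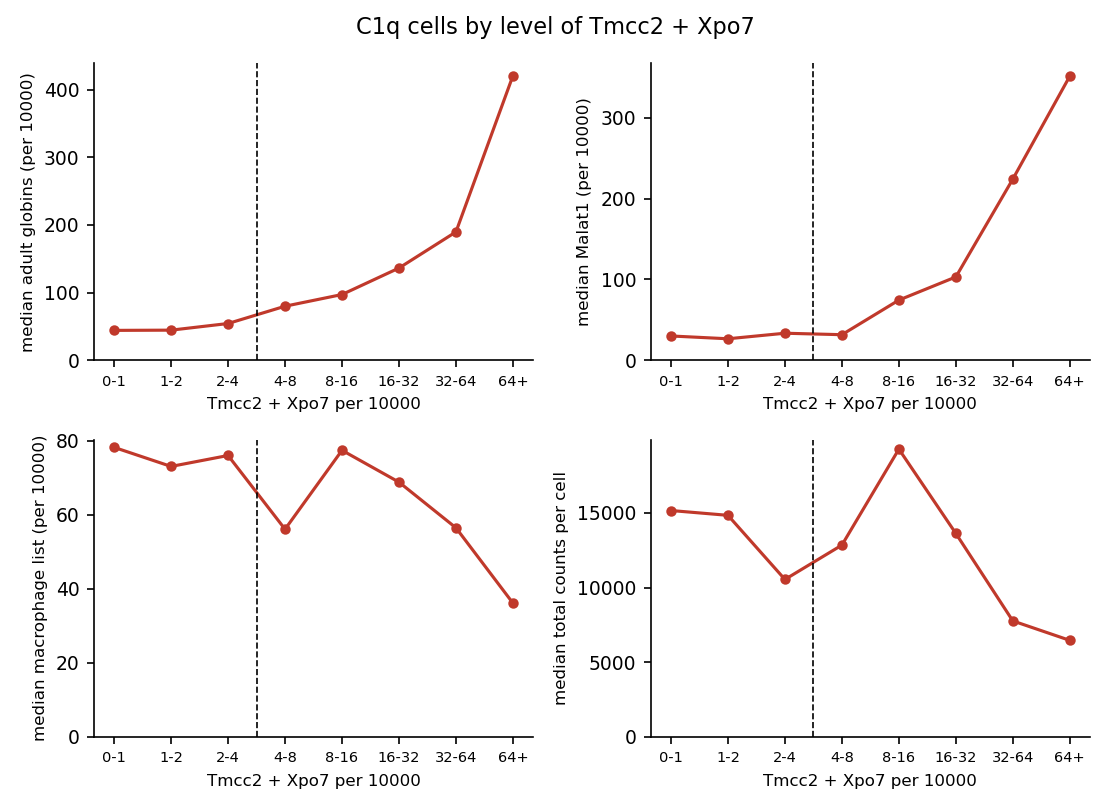
Medians over C1q cells in 8 steps of Tmcc2 plus Xpo7 (x axis, counts per 10000 of the cell) of adult globins, Malat1 and the macrophage list (per 10000) and of the total count per cell; cells right of the dashed line are the 193 late-RNA C1q cells. Globins and Malat1 rise to medians of 421 and 351 in the highest step, where the median total count is 6462.

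Clustering of all cells placed 134 of the 193 late-RNA C1q cells (69.4%) in 1 cluster of 141 cells, which held 1 other C1q cell, 3 late erythroid cells and 3 remaining cells. Its genes furthest above the other clusters were Tmcc2, Ypel4, Xpo7, Dennd4a, Slc2a1, Lpin2, Tbcel, Tmem131l, Gadd45a and Gm37527, and the cluster carries no name here. A cluster led by globins and Alas2 held 11 of the late-RNA C1q cells beside 73 late erythroid cells, and most of the others lay in clusters made up mainly of other C1q cells. With the 5 rule genes left out of the clustering, 130 cells still fell in 1 cluster of 137. Compared with the late-RNA C1q cells elsewhere, the 134 cells had a median of 35.6 against 8.16 per 10000 of Tmcc2 and Xpo7, of 169 against 66.8 of Malat1 and of 8698.5 against 19939 total counts. The macrophage list was at 59.9 against 66.1.

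Markers of the other cell types that the bead selection could hold gave no common direction. Of 6 measured neutrophil genes, 5 were below 1/1.5 times the summed level in other C1q cells, with S100a8 at 1.99 against 3.10 per 10000. Mpo, of their precursors, was above at 0.82 against 0.42. Cell by cell, the neutrophil list was not lower. Its median per cell was 2.89 per 10000 in late-RNA C1q cells and 2.61 in other C1q cells. The 95th percentiles were 13.9 and 6.48, so the summed drop does not describe the typical cell. The hepatoblast list stood at 1.15 times (1.08 to 1.22), with Alb at 0.77 against 0.64 and Afp at 1.22 against 1.15. The monocyte list stood at 0.80 times, the megakaryocyte list, on Pf4 almost alone, at 0.82, and the endothelial list at 0.86. Of the mast cell and basophil, mesenchymal, progenitor and lymphoid lists 0 genes reached 0.2 per 10000. The S phase and mitosis lists stood at 0.91 and 0.93 times, with all 12 genes of each between the limits. Free RNA was not measured. The remaining 1200 cells held Tmcc2 and Xpo7 at a median of 0.46 per 10000, with up to 61.1 in a cell. Their median of adult globins was 39.5 per 10000, against 44.7 in other C1q cells. Doublets, attached or engulfed erythroid material and RNA made by the macrophage itself were not told apart by a test.

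The bulk libraries held little C1q. C1qa, C1qb and C1qc together were at 0.44 to 0.64 counts per 10000 in the EKLF+/+ libraries, 0.44 to 1.07 in EKLF-/-, 0.32 to 0.76 in EKLF/GFP+ and 0.38 to 0.63 in EKLF/GFP-, against 41.0 in late-RNA C1q cells and 1.97 in late erythroid cells of the single-cell library. The assays count differently along a transcript, so only the same genes are set side by side. In bulk libraries, fewer cells of a type cannot be told apart from less RNA per cell. The bulk comparisons thus give the levels of the same genes in F4/80+ sorts that differ in EKLF genotype or in the activity of its promoter, not in late-RNA C1q cells alone.

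Tmcc2 and Xpo7 were both lower without EKLF. Tmcc2 stood at 4560, 4740 and 5037 normalised counts in the EKLF+/+ libraries and at 1268, 1446 and 1415 in EKLF-/-. The groups did not overlap, and the log2 difference was -1.80 (SE 0.107, n = 3 and 3, edgeR adjusted p = 2.24e-05). Xpo7 stood at 3062, 3149 and 3423 in EKLF+/+ and at 1676, 1245 and 1570.5 in EKLF-/-, also without overlap, with a log2 difference of -1.10 (SE 0.131, edgeR adjusted p = 0.00119). Klf1 itself was at 4538 ± 494 (SD, n = 3) in EKLF+/+ and 784 ± 48.7 in EKLF-/-, as a check of the labels. C1qa, C1qb and C1qc did not pass the test, with log2 differences of -0.13, 0.53 and 0.15 and groups that overlapped. These values moved with the second EKLF-/- library, which held C1qb at 649 normalised counts against 234 and 209 in the others. Without it the log2 differences were -0.68, -0.20 and -0.35, and did not pass the test either. Adgre1 was at 405 ± 47.9 and 439 ± 76.2 normalised counts (edgeR adjusted p = 0.604).

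Tmcc2 and Xpo7 were both higher in EKLF/GFP+ cells. Tmcc2 stood at 3606.5, 4001 and 5128 normalised counts in EKLF/GFP+ and at 1506, 1439 and 1455 in EKLF/GFP-, with a log2 difference of 1.53 (SE 0.129, edgeR adjusted p = 5.46e-05). Xpo7 stood at 9307, 9340 and 11279 against 6933, 6846 and 5527, with a log2 difference of 0.63 (SE 0.119, edgeR adjusted p = 0.00311). The groups did not overlap for either gene. The authors' own normalised counts for Xpo7 gave the opposite order, and with limma on them Xpo7 was called lower, by 4.13 on the log2 scale (adjusted p = 0.0428). C1qa, C1qb and C1qc did not pass the test, with log2 differences of 0.40, 0.12 and 0.37. Without the first EKLF/GFP+ library, C1qc was called higher, by 0.71 on the log2 scale (edgeR adjusted p = 0.0268). Adgre1 stood at 954, 2155 and 2725 against 1575, 1275 and 2207 normalised counts and did not pass the test (edgeR adjusted p = 0.679).

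**Figure D5:**
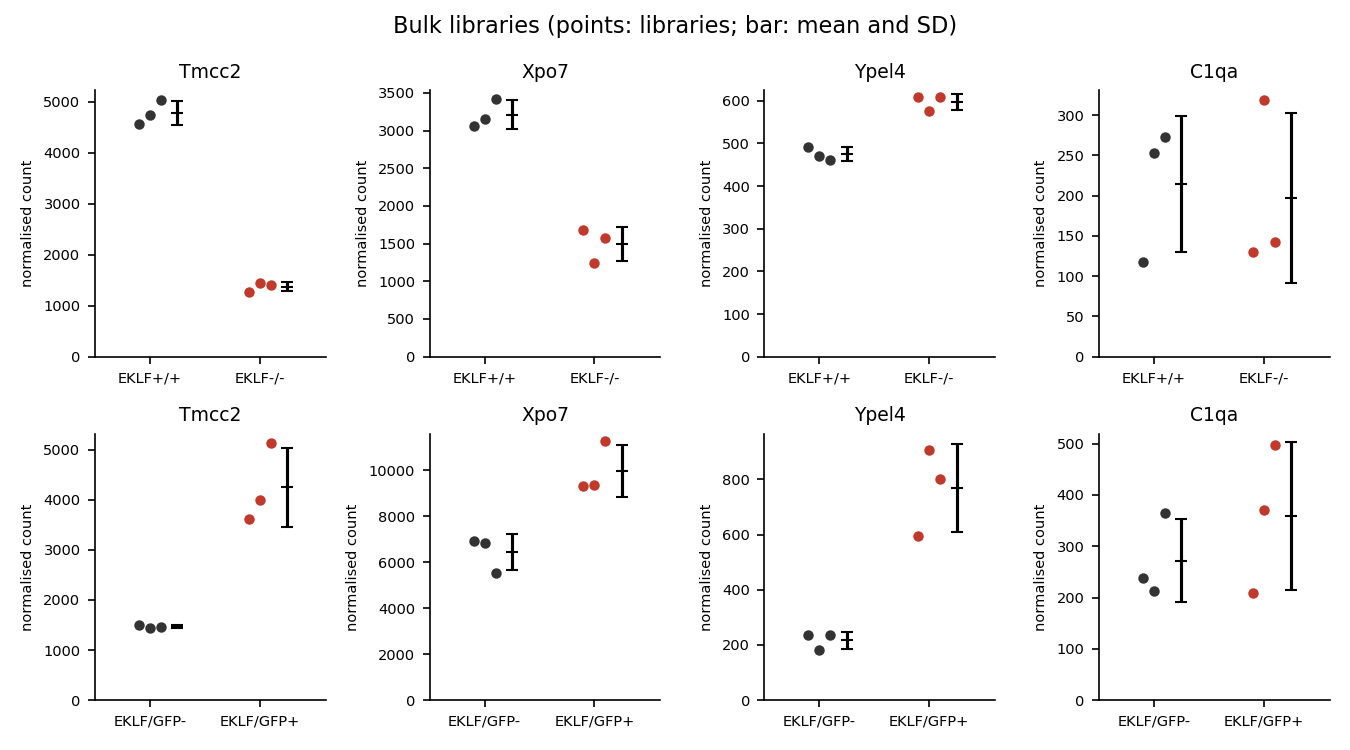
Normalised counts of Tmcc2, Xpo7, Ypel4 and C1qa in each bulk library (points), with mean and SD (bars, n = 3); each row of panels was normalised on its own. Tmcc2 and Xpo7 fall from EKLF+/+ to EKLF-/- and rise from EKLF/GFP- to EKLF/GFP+ without overlap, Ypel4 rises by 1.82 on the log2 scale in EKLF/GFP+ cells, and C1qa overlaps in both comparisons.

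The 50 genes with the largest ratio of late-RNA to other C1q cells, apart from the 5 rule genes, were then followed in the bulk libraries, which the choice of cells did not use. Of the 46 tested in EKLF-/- against EKLF+/+, 21 were called lower and 2 higher (edgeR adjusted p under 0.05), against 10.6% lower and 9.72% higher of all 12753 genes tested. The calls over all genes depended on single libraries: 1356 genes were called lower and 1239 higher, against 575 to 1889 lower and 346 to 1730 higher with 1 library left out. The median log2 difference was -0.45 for the 46 genes and 0.0158 for all genes. Among those with the smallest adjusted p, Slc2a1 fell by 1.59 on the log2 scale, from 4636, 5236.5 and 5170 to 1346, 1870 and 1764 normalised counts. Ermap, a red cell surface protein, fell by 1.99, Slfn14, a ribosome-associated nuclease (under its older symbol Slfn14-ps), by 1.41, Slc4a1 by 1.49, Slc25a37 by 2.84, Trak2, a mitochondrial transport adaptor, by 1.68, and the phosphate transporter Slc20a1 by 0.96. Ppp1r15a, a phosphatase subunit of the stress response, fell by 0.86, Cd24a by 1.08 and Ranbp10 by 1.10. Hbb-bs, listed under an older symbol and open to reads of other globin copies, fell by 5.28. Bpgm, the bisphosphoglycerate mutase of red cells, and Car2 were the 2 called higher, by 1.11 and 0.96.

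The 4 genes named above with an excess over 200% on the total with globins, picked out after their values were seen, did not pass the test in EKLF-/-. Ypel4 was at 492, 471 and 461 normalised counts in EKLF+/+ and at 609, 576 and 608 in EKLF-/-, higher in every EKLF-/- library, with a log2 difference of 0.33 that did not pass the test (edgeR adjusted p = 0.0541). Dennd4a had a log2 difference of -0.53 (edgeR adjusted p = 0.117), and Lpin2 -0.20 and Tmem131l -0.0208 (adjusted p = 0.340 and 0.906 in the same test). Trim10, Tbcel and Gadd45a, also among the leading genes, did not pass it either, with log2 differences of -0.0996, 0.00475 and 0.22. A value that did not pass the test does not show that a gene was equal in both groups. Malat1 stood at 15509, 13479 and 13110 against 9131, 4075 and 10209 normalised counts, lower in every EKLF-/- library, and did not pass the test (edgeR adjusted p = 0.0720). Of all genes tested, 10.6% were called lower and 9.72% higher. Of the 18 tested red cell membrane genes, 13 were called lower, of 24 late maturation genes 9 lower and 2 higher, and of 12 heme synthesis genes 7 lower and 1 higher. Of the 22 tested genes of the macrophage list, 3 were called lower and 3 higher, near the shares of all genes. Of 20 lysosome genes 1 was lower and 8 higher, of 22 efferocytosis genes 4 lower and 1 higher, and of 15 iron recycling genes 1 lower and 2 higher. Markers of some other cells also moved, with 5 of 6 endothelial, 4 of 6 mesenchymal and 3 of 5 progenitor genes lower, and 4 of 8 neutrophil and 2 of 8 monocyte genes higher. Of the 8 hepatoblast and 2 lymphoid genes tested 0 were called, of 7 megakaryocyte genes 1 lower, and of 5 mast cell genes 1 higher. Beside these counts, the summed macrophage list was at 9.28 to 11.9 per 10000 in EKLF+/+ and 13.2 to 19.7 in EKLF-/-, and the part of all these cells in the gene differences was not tested.

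In EKLF/GFP+ against EKLF/GFP-, 47 of the 49 tested leading genes were called higher and 1 lower, against 18.9% higher and 25.8% lower of all 14238 genes tested. The median log2 difference was 1.12, and -0.0132 over all genes. Arl4a, a small GTPase, rose by 1.25 on the log2 scale, from 1044, 1168 and 1085 to 2494, 2745 and 2622 normalised counts. Clcn3, a chloride exchanger of endosomes, rose by 1.10, Ermap by 1.46, Fam214b by 1.39, Slc2a1 by 1.10, Usp32, a deubiquitinase, by 1.24, and Tfdp2, a partner of E2F factors, by 1.19. Ranbp10 rose by 1.29, Cpeb4, a translation regulator of late erythroid cells, by 1.26, Ppp1r15a by 1.54, Slc20a1 by 1.20, and Ube2o, a ubiquitin enzyme that clears proteins from reticulocytes, by 1.35. Ypel4 rose by 1.82, from 235, 181 and 235 to 595, 907 and 802. The one called lower was Akap13, by 0.47 on the log2 scale, and Tmem131l did not pass the test (edgeR adjusted p = 0.0915). Of 22 efferocytosis genes 14 were called lower and 0 higher, of 20 lysosome genes 12 lower and 3 higher, and of 15 iron recycling genes 1 lower and 10 higher. All 18 red cell membrane genes and all 8 globins tested were also called higher, 8 of 22 macrophage genes lower, and all 8 monocyte, all 8 neutrophil, 5 of 6 endothelial, 2 of 6 mesenchymal and all 5 progenitor genes lower. Of 7 megakaryocyte genes 6 were called higher and 1 lower, and their median log2 difference was 1.13. The summed macrophage list was at 3.07 to 7.46 per 10000 in EKLF/GFP+ and 10.67 to 13.8 in EKLF/GFP-, and the part of these cells in the gene differences was not tested. Malat1 and Neat1 were not tested in these libraries.

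Tmcc2, which carried the choice of cells and fell most clearly with EKLF of the 2 late rule genes, has 3 annotated start windows in RefSeq on GRCm38.p6, all on the minus strand of chromosome 1. EKLF binds CACCC-like boxes, and GATA1 binds GATA motifs. The window of an internal start, chr1:132367899-132368198, held 1 match of CCNCNCCC and 1 of AGATAA on either strand. It is printed here from 250 bases before to 50 bases after the start, with the matches in capitals.
Tmcc2 internal start: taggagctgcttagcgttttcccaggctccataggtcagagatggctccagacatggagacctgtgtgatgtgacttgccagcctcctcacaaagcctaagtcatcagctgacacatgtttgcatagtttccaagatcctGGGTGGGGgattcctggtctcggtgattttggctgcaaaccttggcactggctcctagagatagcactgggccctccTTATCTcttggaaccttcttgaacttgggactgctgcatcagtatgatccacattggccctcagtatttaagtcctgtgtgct
Of the other 2 windows, the one furthest upstream, chr1:132391337-132391636, held 5 matches of CCNCNCCC and 0 of AGATAA, and the third held neither. CCNCNCCC was found in 49.5% of all 32851 windows of this length, and AGATAA in 11.2%. A match is a description of the letters and not a binding site, and which start is used in these cells was not measured. Xpo7 and C1qa were not matched in the table, and C1qb and C1qc had CCNCNCCC in their windows and AGATAA in neither.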

How the data were processed

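The members and gene lists were chosen with earlier results of these data known. Single-cell values are the authors' deposited estimated counts of molecules from Alevin. The authors deposited read counts per gene from STAR (mm10) and HTSeq for EKLF+/+ and EKLF-/-, with 67.2 to 72.7% of all counts on lines that name no gene, which were left out. Of the first EKLF+/+ library's file, the 5 columns that repeat other libraries were left aside. For the GFP libraries, the authors deposited estimated counts per transcript from Salmon (GRCm38), which were summed to genes by the GENCODE annotation and rounded to whole numbers. The signal values used in an alternative are counts that the authors normalised with DESeq2 before they were deposited. The table of log2 counts and folds by the authors was not used. The study's own filter on cells was not rebuilt.

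Levels and shares were computed with scipy 1.17.1. The doublet caller and clustering (4000 variable genes, 30 components, resolution 0.8) used scanpy 1.11.5. Each bulk comparison was fitted on its 6 libraries with edgeR 4.0.16: genes with 10 counts in at least 3 libraries, TMM, quasi-likelihood F test, two-sided, adjusted by Benjamini-Hochberg over all genes, threshold 0.05. The SE is the log2 difference divided by the root of F. The labels number 3 samples per bulk group, which the methods call biological replicates. Whether each came from a separate embryo is not given in the sources used here, and p-values measure the spread between these samples. DESeq2 1.42.0 and limma 3.58.1 (log2 with a pseudocount of 1) were alternatives. The steps were checked on simulated data. Named genes were the rule genes and Adgre1, up to 4 per list by level with genes the study names, 12 largest and 6 smallest ratios, 8 furthest above both groups, and up to 12 leading genes by adjusted p in each bulk comparison; other names were added after their values were seen. The Poisson intervals of levels, the conditional binomial intervals of ratios and the delta-method intervals of excess shares are at 95%. A few items named by these rules are not reported here.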

Additional observations from a re-analysis of the deposited data

How the results depend on the processing

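The processing moved the size of the ratios to other C1q cells of the late maturation, adult globin and macrophage lists and not their direction, while comparisons with late erythroid cells depended on the total. Late-RNA C1q cells were 16.4% and 9.50% of C1q cells with the Tmcc2 and Xpo7 limit at 2 and 8 per 10000, and 14.9% with the rule applied after thinning to 5000 counts. For late erythroid maturation genes, the level ratio to other C1q cells was 4.24 with C1q at 20 or more, 3.66 and 5.11 with the late limit at 2 and 8, and 6.05 as a mean over cells. For adult globins, that ratio was 6.19 and 6.65 with C1q at 5 and 20 or more, 4.93 and 5.60 with the late limit at 2 and 8, 4.72 after thinning and 5.09 as a mean over cells. The macrophage list ratio was 0.905 with C1q at 20 or more, 0.904 and 0.916 with the late limit at 2 and 8, 0.898 after thinning and 0.846 as a mean over cells. For Malat1 the ratio was 2.56 with the main settings, 2.20 and 3.01 with the late limit at 2 and 8, 2.92 after thinning and 3.86 as a mean over cells. The adult globin excess was 10.9% and 6.02% with C1q at 5 and 20 or more, 6.44% with the late limit at 2, 7.67% in cells with at least 1000 genes, 4.97% after thinning and 5.62% as a mean over cells.

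A further set of alternatives was chosen after seeing the data. Without the globin-rich C1q cells, the adult globin ratio was 3.20, its excess 1.62% and the macrophage ratio 0.917, and the iron recycling list turned from 0.98 to 1.03. With only the 134 cells of the leading cluster, the maturation ratio was 5.53, the adult globin ratio 2.02, its excess 1.63% and the macrophage ratio 0.933. Per 10000 counts outside the globins, the maturation ratio was 4.70 and the macrophage ratio 0.921. Tmcc2 and Xpo7 together were then at 25.2 in late-RNA C1q cells and 80.3 in late erythroid cells. Their levels were near equal only on the total with globins, and the median raw counts per cell were 32 and 34. The same limit on Tmcc2 and Xpo7 chose both groups, so these values are a description. Outside the globins, the genes above both other C1q and late erythroid cells by 1.5 times went from 30 to 0. Leaving out doublets by the caller gave no value, since it called 0 cells. The cause of the other shifts was not tested.

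In EKLF-/-, 24 of the first 25 leading genes were tested, and 11 were called lower and 1 higher. Of the first 100, 94 were tested, and 32 were called lower and 7 higher, against 10.6% lower and 9.72% higher of all genes. In EKLF/GFP+, 23 of 24 and 83 of 95 tested genes were called higher for the same list sizes, with 0 and 1 lower, against 18.9% higher and 25.8% lower of all genes. Leaving out each library in turn gave 14 to 25 called lower and 2 to 3 higher in EKLF-/-, and 44 to 47 higher and 1 lower in EKLF/GFP+. Over all genes, the same fits called 575 (without the third EKLF-/- library) to 1889 lower (without the first EKLF-/- library) and 346 (without the first EKLF+/+ library) to 1730 higher (without the first EKLF-/- library) in EKLF-/-, and 1917 to 2785 higher and 2820 to 3453 lower in EKLF/GFP+. Leaving out any EKLF+/+ library or the third EKLF-/- library brought the calls over all genes below 1/1.5 times those with all 6. The replicate block gave 19 lower and 2 higher in EKLF-/-, and 46 higher and 1 lower in EKLF/GFP+. Samples sharing a number had correlations of -0.0506, 0.0512 and 0.142 in EKLF-/- against EKLF+/+ and of 0.0366, -0.124 and -0.0140 in the GFP groups, so the numbers were not taken as pairs. With limma on the authors' normalised counts of the GFP groups, 0 leading genes were called lower, and Xpo7 turned to a log2 difference of -4.13, which passed the threshold (adjusted p = 0.0428). The single library without replicate limits every cell-level value.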

Other observations

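The Xpo7 estimate in the GFP libraries depended on which transcripts were counted. The sum of 2 annotated Xpo7 transcripts of 4472 and 15121 bases was 41.5, 447 and 61.4 estimated counts in EKLF/GFP+ and 984, 1651 and 410 in EKLF/GFP-. The authors' normalised counts for the gene were 17.8, 705 and 28.7 against 1391, 2293 and 661. The remaining Xpo7 transcripts summed to 9788, 8182 and 10801 against 6404, 5799 and 4581, in the other direction. Which transcripts the normalised table sums is not given in the sources used here.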
